A study of Homo sapiens with 12 samples.

Results

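The genes described here encode the core of the Polycomb repressive complexes in 2 human lung cancer lines: EZH1, EZH2, EED, SUZ12, RBBP4 and RBBP7 of PRC2, and BMI1, CBX2, CBX7 and RNF2 of PRC1. They were taken by symbol from the deposited tables, where all 10 were found once among 58302 genes. Polyadenylated RNA was sequenced from NCI-H1703 and NCI-H1299 cells after 24 h with SAHA, an inhibitor of zinc-dependent histone deacetylases also called vorinostat, or with its vehicle. The 12 libraries form 4 groups of 3: H1703 with SAHA, H1703 with DMSO, H1299 with SAHA and H1299 with DMSO. No genetic change is named for any group, and all were grown in the same serum-containing medium. The treatment protocol lists SAHA at 2.5, 10 and 40 µM with 0.1% DMSO as vehicle, without saying which concentration the sequenced cells received or whether it was the same in both lines. The labels do not say that the replicates were separate cultures, and the p-values therefore rest on a scatter that could be purely technical.

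Polycomb proteins hold developmental genes silent through 2 kinds of complex. In PRC2, EZH2 or EZH1 methylates lysine 27 of histone H3, and needs EED and SUZ12 to do so. The histone-binding proteins RBBP4 and RBBP7 complete the core and also serve other chromatin complexes, among them deacetylase complexes. In canonical PRC1, a CBX protein reads that methyl mark, while the RING protein RNF2 (RING1B), with a partner such as BMI1, ubiquitinates histone H2A. EZH2 is known as the enzyme of dividing cells and as a target of E2F factors, and EZH1 as the paralogue that persists in resting cells.

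The promoter sequences of 4 genes are shown because these are the members whose transcripts moved the same way with SAHA in both lines, EZH2, SUZ12 and RBBP4 downwards and CBX7 upwards. Each window is RefSeq's, on GRCh38.p14, from 250 bases before to 50 bases after an annotated start, read 5′ to 3′ on the gene's own strand. Capitals mark the E2F letters TTTCCCGC or TTTGGCGC and the NF-Y letters CCAAT, each searched on both strands. The windows are chr7:148884242-148884541 (minus strand) for EZH2, chr17:31936757-31937056 (plus) for SUZ12, chr1:32650958-32651257 (plus) for RBBP4 and chr22:39152631-39152930 (minus) for CBX7.
EZH2: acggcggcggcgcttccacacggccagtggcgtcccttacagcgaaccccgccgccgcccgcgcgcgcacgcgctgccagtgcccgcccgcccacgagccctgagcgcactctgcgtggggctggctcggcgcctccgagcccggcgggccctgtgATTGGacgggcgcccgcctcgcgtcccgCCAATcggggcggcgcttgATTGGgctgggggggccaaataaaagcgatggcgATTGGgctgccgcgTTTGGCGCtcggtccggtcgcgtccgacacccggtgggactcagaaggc
SUZ12: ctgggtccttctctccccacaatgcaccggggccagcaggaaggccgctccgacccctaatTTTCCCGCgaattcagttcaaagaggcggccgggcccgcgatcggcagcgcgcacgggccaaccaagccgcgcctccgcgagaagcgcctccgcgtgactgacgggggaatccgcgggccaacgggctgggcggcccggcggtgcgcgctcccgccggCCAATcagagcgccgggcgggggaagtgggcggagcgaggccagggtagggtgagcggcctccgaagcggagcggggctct
RBBP4: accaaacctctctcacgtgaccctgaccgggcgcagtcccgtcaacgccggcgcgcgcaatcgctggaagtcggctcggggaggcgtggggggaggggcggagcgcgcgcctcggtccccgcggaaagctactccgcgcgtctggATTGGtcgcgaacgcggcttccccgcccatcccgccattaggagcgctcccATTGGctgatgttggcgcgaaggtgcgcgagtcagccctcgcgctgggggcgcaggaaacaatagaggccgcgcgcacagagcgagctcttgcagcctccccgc
CBX7: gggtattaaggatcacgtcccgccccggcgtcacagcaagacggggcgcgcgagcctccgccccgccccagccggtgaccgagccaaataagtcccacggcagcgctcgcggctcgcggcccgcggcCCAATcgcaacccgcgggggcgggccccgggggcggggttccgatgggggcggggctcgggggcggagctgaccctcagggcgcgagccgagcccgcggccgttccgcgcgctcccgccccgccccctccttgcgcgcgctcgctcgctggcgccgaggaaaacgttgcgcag
The EZH2 window shown held 4 NF-Y matches and 1 E2F match, which begins 1 base after the annotated start, and a second EZH2 window in the table held neither. SUZ12 held 1 of each, the E2F letters 189 bases before the start. RBBP4 held 2 NF-Y matches and CBX7 held 1, and neither held the E2F letters. RefSeq lists 13 windows for 9 of the members, some of which overlap. Of these windows 2 held the E2F letters and 8 the NF-Y letters, against 2.27% and 34.6% of 35116 windows of the same length. By gene, 2 members had the E2F letters and 6 the NF-Y letters in at least 1 window. The letters GGGCGG (GC box) and TTTGAA (CHR) were also searched and are not marked. They stood in 12 and 1 of the 13 windows, against 45.0% and 15.2%. CBX2 had no entry in the table. These are matches of letters and do not show binding.

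Total counts ran from 14416126 to 19408852 a library. The mitochondrially encoded share was 8.77 to 10.9% in H1703 with SAHA and 5.44 to 6.27% with DMSO, and 4 to 4.23% in H1299 with SAHA and 1.96 to 2.22% with DMSO. Its part in the results was not tested, but leaving those genes out of the scaling changed the call of no member in any comparison. The labelled epithelial type was checked against 6 markers. In H1299 the keratins KRT8 and KRT18 were abundant, but E-cadherin, CDH1, had 2, 3 and 3 counts with SAHA and 0 in every DMSO library, and EPCAM had at most 8 counts. In H1703, CDH1 had 441 to 580 counts with SAHA and 1144 to 1819 with DMSO, and EPCAM 26 to 56 counts over the 6 libraries. Of the epithelial markers tested 2 rose and 2 fell of 6 with SAHA in H1703 and 3 of 4 rose in H1299 (1 of them, KRT19, at 10 to 23 counts with SAHA and 0 to 1 with DMSO), and their summed level was 2950 to 3410 CPM with SAHA and 3980 to 4440 CPM with DMSO in H1703, and 1360 to 1580 CPM with SAHA and 590.0 to 613 CPM with DMSO in H1299. Of 12 markers of other cell types, 6 were tested in H1703 and 4 in H1299, and of these 3 and 2 reached 10 counts in all SAHA libraries but not in all DMSO libraries, so they could enter only by being higher with SAHA. Among the others 1 of 3 rose in H1703, and 1 rose and 1 fell of 2 in H1299. The 12 summed to 141 to 154 CPM with SAHA and 95.4 to 114 CPM with DMSO in H1703, and to 62.5 to 74.6 CPM with SAHA and 23.5 to 45.2 CPM with DMSO in H1299. What these shifts add to the changes of the members was not tested. In the DMSO libraries CD3E stood at 0 in both lines and HBB in H1299, and PTPRC, a leukocyte marker, had at most 3 counts in any library. Other genes of that list were plainly counted: in H1703 CD14 had 383 to 601 counts with SAHA and 185 to 453 with DMSO and COL1A1 890 to 1160 with SAHA and 974 to 1025 with DMSO. In H1299 COL1A1 had 563 to 725 counts with SAHA and 14 to 28 with DMSO, and CD68 had 212 to 873 counts over the 12 libraries.

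The first comparison is SAHA against DMSO within each line. Levels below are CPM, counts scaled to library size with TMM factors over all libraries, each gene's fold change is on the log2 scale with its SE, and a gene was called when edgeR's quasi-likelihood test gave a Benjamini-Hochberg adjusted p under 0.05 over all genes. In H1703, EZH2, SUZ12, RBBP4 and BMI1 fell and CBX7 rose, with 5 members not called. In H1299, EZH1, EZH2, SUZ12, RBBP4, RBBP7 and RNF2 fell, CBX2 and CBX7 rose, and 2 were not called. Among all genes 67.4% were called in H1703 and 63.8% in H1299, so the 5 of 10 and 8 of 10 members called are close to what any gene showed. By direction, 32.6% of genes were lower and 34.7% higher in H1703, and 30.4% lower and 33.3% higher in H1299. The median change of the members was -0.12 in H1703 and -0.32 in H1299, beside 0.02 for all genes tested in either line. In bulk RNA, fewer cells of a kind and less RNA per cell cannot be told apart.

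**Figure D1:**
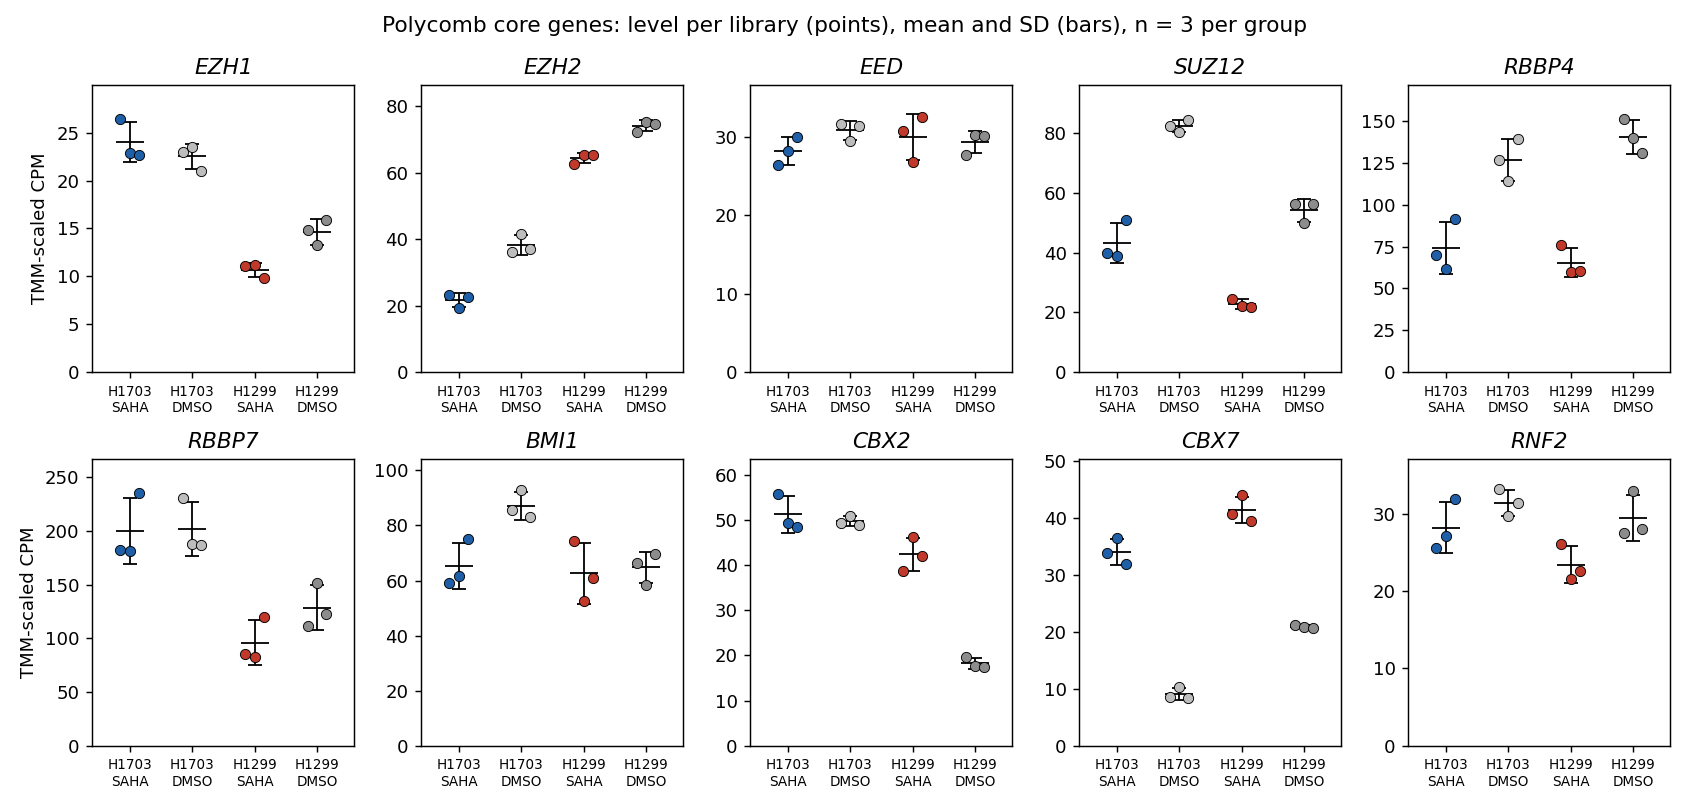
TMM-scaled CPM (vertical axis, from 0) of each member in every library, with the mean and SD of the 3 libraries of a group. CBX7 lies at 31.8 to 36.4 CPM in H1703 with SAHA and 8.39 to 10.4 with DMSO, and EED overlaps between SAHA and DMSO in both lines.

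EZH2 (ENSG00000106462, GRCh38 chromosome 7, 148807383 to 148884321), the main H3K27 methyltransferase, fell in both lines and more in H1703. In H1703 it stood at 23.1, 19.2 and 22.7 CPM with SAHA and at 36, 41.7 and 37.1 CPM with DMSO. In H1299 it stood at 62.7, 65.4 and 65.4 CPM with SAHA and at 72.3, 75.3 and 74.8 CPM with DMSO. In neither line did the groups overlap. The fall in H1703 was 1.74-fold (-0.80 ± 0.11, edgeR adjusted p = 0.00016), and the differences within the 3 labelled batches were -0.64, -1.11 and -0.70. In H1299 it was 1.19-fold (-0.26 ± 0.08, edgeR adjusted p = 0.016), with -0.20, -0.20 and -0.19 within batches. That smaller call ended in a fit over all 12 libraries (edgeR adjusted p = 0.064) and with library totals as the only scaling (0.053), while over all alternatives it ran from 0.016 to 0.064. The effects themselves differed by -0.62 ± 0.13 (H1703 minus H1299, edgeR interaction adjusted p = 0.0019), where 34.9% of all genes had a called difference (13.7% higher, 21.2% lower, and 18.8% of 2-fold or more). Of the members 2 were called higher (EZH1, CBX7) and 2 lower (EZH2, CBX2), with CBX2 alone past 2-fold.

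EZH1 (ENSG00000108799, chromosome 17, 42700275 to 42745049), the less active paralogue, fell in H1299 and was not called in H1703. Its levels in H1703 were 26.4, 22.9 and 22.7 CPM with SAHA and 23.0, 23.5 and 21.0 CPM with DMSO, which overlap. In H1299 the SAHA libraries held 11.1, 11.2 and 9.84 CPM, all under the 14.8, 13.2 and 15.9 CPM of the DMSO libraries. The change was 0.11 ± 0.11 in H1703 (edgeR adjusted p = 0.40) and -0.51 ± 0.13 in H1299 (edgeR adjusted p = 0.0067), and within batches it was 0.20, -0.04 and 0.11 in H1703, and -0.42, -0.24 and -0.69 in H1299. The difference between lines was 0.55 ± 0.16 (edgeR adjusted p = 0.018). It was no longer called without H1703 SAHA replicate 1 (0.053), without H1299 DMSO replicate 3 (0.051) or with library totals alone (0.059), over a range of 0.0032 to 0.059.

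SUZ12 (ENSG00000178691, chromosome 17, 31937018 to 32001045), which holds PRC2 together, had the lowest fold change of the 10 in each line. Its levels were 40.0, 39.0 and 51.0 CPM with SAHA and 82.4, 80.6 and 84.4 CPM with DMSO in H1703. In H1299 they were 24.6, 22.1 and 21.8 CPM with SAHA and 56.5, 49.9 and 56.5 CPM with DMSO. The groups were far apart in both lines. SUZ12 fell 1.88-fold in H1703 (-0.91 ± 0.11, edgeR adjusted p = 6.2e-05) and 2.47-fold in H1299 (-1.30 ± 0.10, edgeR adjusted p = 6.3e-06), and 6.41% of all genes of H1299 had a lower fold change. Within batches the differences were -1.04, -1.04 and -0.72 in H1703 and -1.19, -1.17 and -1.37 in H1299. The effects differed between lines by 0.32 ± 0.15, with an interval from 0.00 to 0.65 and no call (edgeR adjusted p = 0.12). SUZ12P1, a pseudogene copy that can share its reads, had 53 to 62 counts with SAHA and 92 to 138 with DMSO in H1703, and 50 to 53 with SAHA and 72 to 89 with DMSO in H1299, against 348 or more for SUZ12 in every library.

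EED (ENSG00000074266, chromosome 11, 86244544 to 86278813), the subunit that reads the methyl mark PRC2 has made, was called in no comparison. In H1703 it ran from 26.4 to 30.0 CPM with SAHA and from 29.5 to 31.7 CPM with DMSO, and in H1299 from 26.8 to 32.6 CPM with SAHA and from 27.7 to 30.3 CPM with DMSO. The groups overlap in both lines. The changes were -0.11 ± 0.10 (95% interval -0.33 to 0.11, edgeR adjusted p = 0.33) in H1703 and -0.02 ± 0.11 (-0.27 to 0.22, edgeR adjusted p = 0.88) in H1299.

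RBBP4 (ENSG00000162521, chromosome 1, 32651142 to 32686211) fell in both lines. It was at 70.3, 61.4 and 91.5 CPM with SAHA and 127, 114 and 139 CPM with DMSO in H1703, and at 75.8, 60.1 and 60.6 CPM with SAHA and 151, 140 and 131 CPM with DMSO in H1299. Every SAHA library lay under every DMSO library of its line. The fall was 1.68-fold in H1703 (-0.75 ± 0.15, edgeR adjusted p = 0.0023) and 2.23-fold in H1299 (-1.16 ± 0.11, edgeR adjusted p = 1.9e-05). Batch by batch it was -0.85, -0.89 and -0.61 in H1703, and -1, -1.22 and -1.11 in H1299. The difference between lines, 0.33 ± 0.20 (-0.09 to 0.76), was not called (edgeR adjusted p = 0.21). RBBP4P1, the most counted of its pseudogenes, had 53 to 77 counts with SAHA and 121 to 172 with DMSO in H1703. In H1299 RBBP4P1 had 58 to 83 with SAHA and 164 to 165 with DMSO. It moved with RBBP4 at a small part of that gene's 947 to 2504 counts. On the other strand RBBP4 overlaps SYNC, which had 37 to 75 counts with SAHA and 155 to 230 with DMSO in H1703. In H1299 SYNC had 48 to 66 counts with SAHA and 10 to 23 with DMSO. Because the labels name both a directional and an un-stranded library, reads of this pair may not be separated.

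RBBP7 (ENSG00000102054, chromosome X, 16839283 to 16870414), the close relative of RBBP4, scattered more. In H1703 its 182, 182 and 235 CPM with SAHA overlap the 231, 188 and 187 CPM with DMSO, with a change of 0.00 ± 0.13 (-0.29 to 0.29). In H1299 it had 85.1, 82.6 and 120 CPM with SAHA and 111, 152 and 123.1 CPM with DMSO, which overlap as well. It was called lower there (-0.48 ± 0.17, edgeR adjusted p = 0.040), but the call was lost without DMSO replicate 2 (0.11), DMSO replicate 3 (0.067), SAHA replicate 1 (0.14) or SAHA replicate 2 (0.12), with no filter on low counts (0.062) and with library totals alone (0.051), over a range of 0.0041 to 0.14. The difference between lines, 0.41 ± 0.24, was not called (edgeR adjusted p = 0.21, over all alternatives 0.04 to 0.43). The gene overlaps TXLNG on the other strand, which had 642 to 690 counts with SAHA and 615 to 783 with DMSO in H1703 and 526 to 615 with SAHA and 842 to 942 with DMSO in H1299, and because the labels name both a directional and an un-stranded library, reads of the pair may not be separated.

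Of the PRC1 enzyme pair, RNF2 (ENSG00000121481, chromosome 1, 185045364 to 185102608), the ubiquitin ligase, moved little. Its levels were 25.6, 27.1 and 31.9 CPM with SAHA and 33.1, 29.8 and 31.4 CPM with DMSO in H1703, and 26.1, 21.5 and 22.6 CPM with SAHA and 27.4, 32.9 and 28 CPM with DMSO in H1299. The groups overlap in H1703 only. The change in H1703 was -0.14 ± 0.11 (edgeR adjusted p = 0.30). In H1299 it was -0.39 ± 0.12 (edgeR adjusted p = 0.019), a call that ended without DMSO replicate 2 (0.075), SAHA replicate 2 (0.059) or SAHA replicate 3 (0.060) and with library totals alone (0.053), over a range of 0.011 to 0.075. The difference between lines, 0.17 ± 0.17, was not called (edgeR adjusted p = 0.46).

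BMI1 (ENSG00000168283, chromosome 10, 22321211 to 22331484), the RING partner that stimulates RNF2, fell 1.32-fold in H1703. There it held 59.2, 61.7 and 75.0 CPM with SAHA and 85.5, 92.7 and 83.1 CPM with DMSO, without overlap (-0.40 ± 0.10, edgeR adjusted p = 0.0072). In H1299 the 74.3, 52.5 and 60.9 CPM with SAHA spanned the 66.4, 58.5 and 69.6 CPM with DMSO (-0.10 ± 0.13, edgeR adjusted p = 0.51). The difference between lines of -0.37 ± 0.18 was not called (edgeR adjusted p = 0.13), though it was without H1703 SAHA replicate 3 (0.047) or H1299 SAHA replicate 2 (0.044), over a range of 0.044 to 0.32. The read-through gene COMMD3-BMI1 overlaps it with 7 to 37 counts a library, against 827 to 1589 for BMI1.

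CBX7 (ENSG00000100307, chromosome 22, 39120167 to 39152674), a CBX protein of canonical PRC1, rose in both lines. It was at 33.8, 36.4 and 31.8 CPM with SAHA and 8.55, 10.4 and 8.39 CPM with DMSO in H1703. In H1299 it was at 40.6, 44 and 39.5 CPM with SAHA and 21.2, 20.9 and 20.6 CPM with DMSO. The replicates lay close together and the groups far apart. CBX7 rose 3.77-fold in H1703 (1.92 ± 0.12, edgeR adjusted p = 9.2e-07) and 1.91-fold in H1299 (0.93 ± 0.10, edgeR adjusted p = 3.3e-05), and within batches by 1.97, 1.80 and 1.91 in H1703 and by 0.94, 1.07 and 0.93 in H1299. In H1703 89.6% of all genes had a lower fold change. The rise was larger in H1703 by 0.91 ± 0.15 (edgeR adjusted p = 3e-04). An antisense gene over CBX7, AL031846.2, had 29 to 42 counts with SAHA and 8 to 11 with DMSO in H1703, and 34 to 49 with SAHA and 22 to 40 with DMSO in H1299. CBX7 itself had 122 or more counts in every library.

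CBX2 (ENSG00000173894, chromosome 17, 79778132 to 79787983), a second CBX reader of the same complex, rose in H1299 alone of the calls. Its levels in H1703 were 55.8, 49.3 and 48.5 CPM with SAHA and 49.2, 50.9 and 48.8 CPM with DMSO, overlapping. In H1299 it had 38.8, 46.2 and 42.0 CPM with SAHA and 19.7, 17.7 and 17.5 CPM with DMSO. The change was 0.06 ± 0.09 in H1703 (95% interval -0.14 to 0.26, edgeR adjusted p = 0.56) and 1.16 ± 0.11, or 2.23-fold, in H1299 (edgeR adjusted p = 2e-05). Batch by batch it was 0.18, -0.05 and -0.01 in H1703 and 0.97, 1.38 and 1.26 in H1299. The difference between lines, -1.17 ± 0.13, was the largest of the members (edgeR adjusted p = 1.4e-05).

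**Figure D2:**
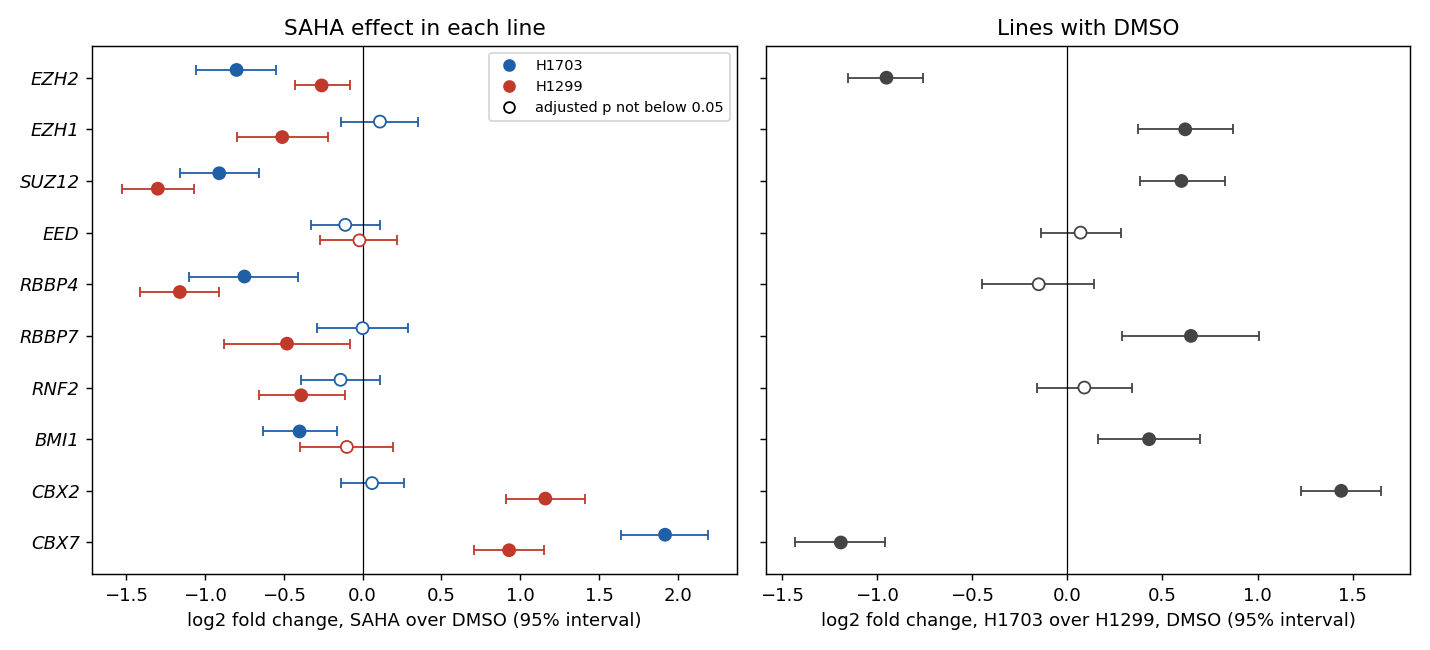
Log2 fold changes with 95% intervals, for SAHA over DMSO in H1703 (blue) and H1299 (red) on the left and for H1703 over H1299 with DMSO on the right; open points were not called. CBX7 is at 1.92 and 0.93 on the left and at -1.19 on the right, and CBX2 at 0.06 and 1.16 on the left and at 1.44 on the right.

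The second comparison set the lines against each other with DMSO, which asks what each line's Polycomb core looked like without the drug. Of the 10 members 7 were called, where 66.5% of all genes were, 34.3% higher and 32.2% lower. Higher in H1703 than in H1299 were CBX2 (2.72-fold, 1.44 ± 0.10, edgeR adjusted p = 1.1e-08), RBBP7 (0.65 ± 0.17), EZH1 (0.62 ± 0.12), SUZ12 (0.60 ± 0.11) and BMI1 (0.43 ± 0.13). Lower in H1703 were CBX7 (2.29-fold, -1.19 ± 0.11, edgeR adjusted p = 2.6e-07) and EZH2 (1.94-fold, -0.95 ± 0.09, edgeR adjusted p = 3.9e-07). RBBP4 (-0.15 ± 0.14), RNF2 (0.09 ± 0.12) and EED (0.07 ± 0.10) were not called. BMI1 lost its call with library totals alone (edgeR adjusted p = 0.13; over all alternatives 0.0015 to 0.13) and RBBP4 gained one (-0.34, edgeR adjusted p = 0.047; 0.047 to 0.70). For both CBX genes the line with the lower level under DMSO had the larger rise with SAHA, though these comparisons share the DMSO libraries. CBX2 averaged 51.2 ± 4.0 CPM in H1703 and 42.3 ± 3.7 CPM in H1299 with SAHA, and 49.7 ± 1.1 CPM in H1703 and 18.3 ± 1.2 CPM in H1299 with DMSO (SD, n = 3 each).

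Levels of different genes were compared only per length, by the deposited FPKM, whose gene lengths run from 5330 bases for RNF2 to 14591 for RBBP4. A single length stands for each gene whichever transcripts it made, so orders and ratios between genes depend on those lengths. With DMSO, RBBP7 was first in both lines, at 16.5 ± 2.0 FPKM in H1703 and 12 ± 1.8 FPKM in H1299 (SD, n = 3 each). In H1703 BMI1 came next at 11.9 FPKM, and RBBP4, SUZ12 and CBX2 followed at 8.23, 7.86 and 7.67 FPKM, with ranges that overlap between neighbours. RNF2 at 5.58, EZH2 at 4.54, EED at 2.46, EZH1 at 1.87 and CBX7 at 0.889 FPKM then followed, each apart from its neighbour. In H1299 with DMSO, RBBP7, RBBP4, BMI1 and EZH2 at 10.1 FPKM overlapped in turn, RNF2 and SUZ12 stood near 5.97 and 5.92, and CBX2 (3.23), EED (2.68), CBX7 (2.33) and EZH1 (1.39 FPKM) closed the order. With SAHA, CBX2 followed RBBP7 and BMI1 in H1703 at 7.45 FPKM, and EZH2, EED and EZH1 came last at 2.42, 2.12 and 1.87 FPKM with overlapping neighbours. In H1299 with SAHA, BMI1, RBBP7 and EZH2 led at 9.93, 9 and 8.85 FPKM, CBX2 was at 7.56, and SUZ12 at 2.52 lay beside EED at 2.77, above EZH1 alone at 1.03.

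The balance between paralogues was taken per library as the log2 ratio of FPKM values with 0.1 added. With 3 libraries a side, a two-sided exact permutation test cannot go under p = 0.10, so these ratios could not pass 0.05. EZH1 over EZH2 averaged -0.35 ± 0.13 with SAHA and -1.24 ± 0.10 with DMSO in H1703 (exact permutation p = 0.10), and -3.00 ± 0.11 with SAHA and -2.78 ± 0.13 with DMSO in H1299, where the groups overlap (exact permutation p = 0.20). On the plain scale EZH1 stood at 0.695 to 0.83 of EZH2 in H1703 with SAHA, 0.394 to 0.446 with DMSO, 0.105 to 0.123 in H1299 with SAHA and 0.123 to 0.148 with DMSO. RBBP7 over RBBP4 was higher by 0.75 in H1703 and by 0.67 in H1299 with SAHA than with DMSO, without overlap (exact permutation p = 0.10 in each line). CBX7 over CBX2 was higher by 1.75 in H1703, at 0.382 to 0.467 with SAHA and 0.109 to 0.129 with DMSO, and lower by a smaller amount (-0.23) in H1299, at 0.594 to 0.661 with SAHA and 0.678 to 0.746 with DMSO.

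**Figure D3:**
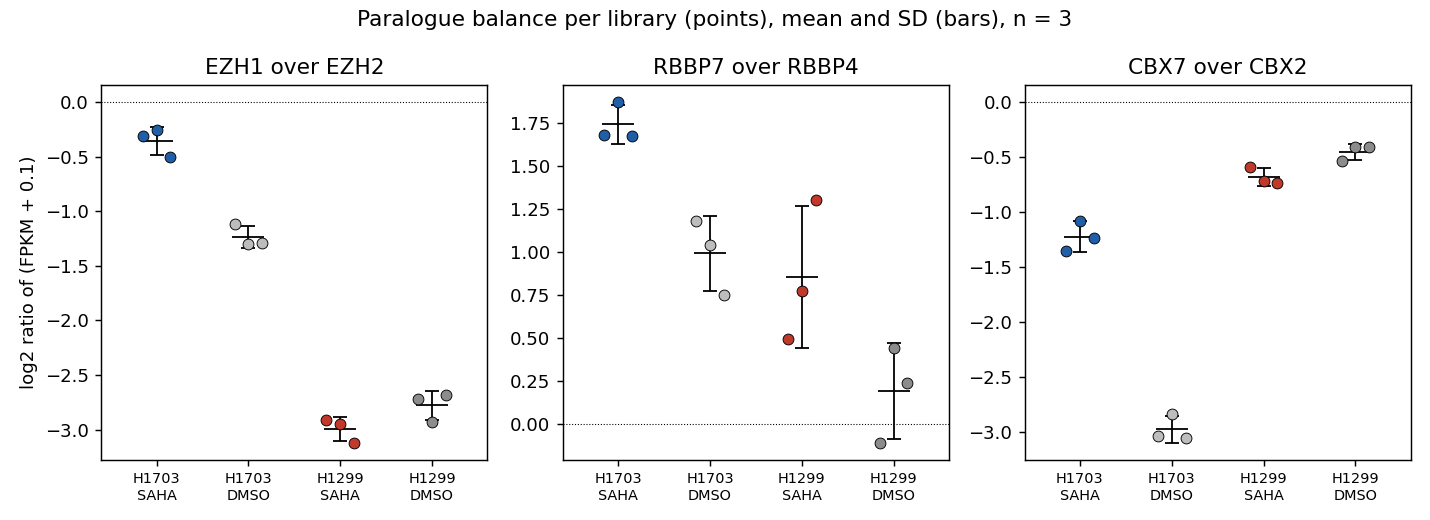
Log2 ratio of FPKM + 0.1 for each paralogue pair in every library, with the mean and SD of 3 libraries. EZH1 over EZH2 lies near -0.35 in H1703 with SAHA and near -3.00 in H1299 with SAHA, and CBX7 over CBX2 near -2.98 in H1703 with DMSO.

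Other Polycomb genes were read from lists written from general knowledge, and each count stands beside the shares of all genes given above (34.7% higher and 32.6% lower in H1703, 33.3% and 30.4% in H1299). With so few genes a list, a count near those shares is no result about the list. Among the accessory subunits of PRC2, 8 of 9 were tested: 2 rose and 4 fell in H1703 (median -0.20), and 1 rose and 3 fell in H1299 (median -0.13). PHF19, a Tudor protein that brings PRC2 to chromatin, fell furthest, at 7.89 ± 0.63 CPM with SAHA and 87.3 ± 5.5 CPM with DMSO in H1703 (-3.45 ± 0.10, edgeR adjusted p = 1.2e-08) and at 36.4 ± 2.2 CPM with SAHA and 241 ± 1.3 CPM with DMSO in H1299 (-2.78 ± 0.08, edgeR adjusted p = 7e-08). Its sister PHF1 rose in H1703 (1.09 ± 0.11) and was not called in H1299 (0.20 ± 0.11). JARID2, which links PRC2 to its targets, rose in both lines (0.75 ± 0.08 in H1703 and 1.21 ± 0.11 in H1299), and the count of risen members there became 2 with DESeq2, 2 without H1299 SAHA replicate 2 and 3 with library totals alone. In H1703 it was 4 without SAHA replicate 2.

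Of 13 further subunits of canonical PRC1 and its relatives, all tested, 4 rose and 6 fell in H1703 (median -0.07), and 3 rose and 5 fell in H1299 (median -0.10). RING1, the paralogue of RNF2, rose in H1703 (0.58 ± 0.10) and in H1299 (1.12 ± 0.10). SCMH1 (-1.62 ± 0.13 in H1703 and -0.91 ± 0.11 in H1299), SFMBT1 (-1.5 ± 0.20 in H1703 and -0.97 ± 0.10 in H1299) and SCML2 (-0.83 ± 0.12 in H1703 and -1.45 ± 0.15 in H1299), which have MBT domains, fell in both lines. SFMBT2, which has them too, rose in H1703 (0.50 ± 0.11) and was not called in H1299 (0.37 ± 0.19). It is also named after its values were seen. CBX8, also of the list, fell in H1703 (-0.80 ± 0.12) and rose in H1299 (0.62 ± 0.11), and CBX6 was called in neither line; they are named after their values were seen. The number risen in H1299 was 5 in the fit over all 12 libraries. Among variant PRC1 subunits, 3 rose and 9 fell of 18 in H1703 (median -0.27), and 1 rose and 8 fell of 17 in H1299 (median -0.30). KDM2B, which recruits variant PRC1 to CpG islands, fell in H1703 (-1.17 ± 0.10) and in H1299 (-0.85 ± 0.11), L3MBTL2 fell in H1703 (-1.13 ± 0.12) and in H1299 (-1.37 ± 0.12), and the corepressor BCORL1 rose in H1703 (1.05 ± 0.09) and in H1299 (1.06 ± 0.22). A second variant PRC1 member was called higher in H1299, making 2, in the fit over all 12 libraries, with no low-count filter and without H1299 SAHA replicate 1.

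Enzymes that remove Polycomb marks, with their partners and the demethylase KDM1B of another histone residue, had 1 up and 3 down of 12 tested in H1703 (median -0.09), and 5 up and 5 down of 13 in H1299 (median 0.04). In H1299 1 of the 13, ASXL3, reached 10 counts in every SAHA library but not in every DMSO library, so its direction was set by how it entered. Of the other 12, 4 rose and 5 fell. The shares of all genes include genes that entered in this way, so they are not matched to these 12. ASXL1, a partner of the deubiquitinase BAP1, fell in H1703 (-1.16 ± 0.09) and in H1299 (-0.99 ± 0.10), and ASXL2 did too (-0.91 ± 0.08 in H1703 and -1.54 ± 0.14 in H1299). KDM1B rose in H1703 (1.43 ± 0.13) and in H1299 (0.26 ± 0.10). The mark-removing enzymes themselves are named after their values were seen. In H1299 the H3K27 demethylase KDM6B rose (0.53 ± 0.11), while its relative KDM6A (-0.30 ± 0.13) and BAP1 (0.04 ± 0.10) were not called. Mean levels in H1703 with SAHA and with DMSO were 49.5 and 54.8 CPM for BAP1. They were 29.4 and 28.3 CPM for KDM6A, and 35.8 and 44.4 CPM for KDM6B. In H1299 ASXL3 rose (3.16 ± 0.34) at low counts, 61, 46 and 68 with SAHA and 4, 10 and 5 with DMSO. The number risen was 2 in H1703 with no low-count filter or in the fit over all 12 libraries, and 3 in H1299 without DMSO replicate 1 or without DMSO replicate 2. The partners that RBBP4 and RBBP7 have outside Polycomb fell in 13 and rose in 5 of 23 in H1703 (median -0.51), and fell in 14 and rose in 4 in H1299 (median -0.41). CHD3, a remodeller of the NuRD deacetylase complex, fell in H1703 (-2.96 ± 0.08) and in H1299 (-2.25 ± 0.10). MYBL2, a MuvB partner of dividing cells, fell in both lines (-4.15 ± 0.15 in H1703 and -1.72 ± 0.10 in H1299), as did BPTF of the NURF remodeller (-1.18 ± 0.10 in H1703 and -1.84 ± 0.13 in H1299), and the MuvB subunit LIN37 rose in H1703 (0.97 ± 0.18) and in H1299 (1.34 ± 0.17).

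The genes that Polycomb acts on stand at the other end of the pathway. Of 30 genes often reported as bound by Polycomb, 23 could be tested in each line. In H1703 4 of them (CCND2, NEUROD1, NEUROG2 and OLIG2) reached 10 counts in every SAHA library but not in every DMSO library, and 3 the reverse, so their direction was set by how they entered. Of the remaining 16, 5 rose and 6 fell. In H1299 4 (CCND2, LHX9, NEUROD1 and PAX2) entered in that way through the SAHA libraries, and of the remaining 19, 8 rose and 5 fell. The shares of all genes include genes that entered through only 1 group, so they are not matched to the 16 or the 19. NEUROD1, a neuronal transcription factor, had 73, 76 and 81 counts with SAHA and 0 in each DMSO library of H1703, at least 25.5-fold higher against 3 counts a library. CCND2, cyclin D2, had 79, 85 and 126 counts with SAHA and 0, 0 and 1 with DMSO in H1703, a ratio of 289 whose interval of 51.5 to 11500 covers counting error only. In H1299 it had 346, 399 and 437 counts with SAHA and 9, 10 and 13 with DMSO (5.18 ± 0.19). Its direction was set by how it entered there too. OLIG2, a glial and neuronal factor, rose in H1299 (3.27 ± 0.22). WT1, a factor of kidney and gonad development, fell in H1703 (-2.51 ± 0.21) and in H1299 (-2.08 ± 0.16).

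Genes reported as silenced by EZH2 in cancers rose in 8 and fell in 2 of the 12 in H1703 that reached 10 counts in all 6 libraries. PPP2R2B, SLIT2 and TIMP3 did so in all SAHA libraries only, so their direction in H1703 was set by how they entered. In H1299 genes of this list rose in 12 and fell in 1 of 14. Of all genes tested, 34.7% were called higher in H1703 and 33.3% in H1299. Those shares include genes that entered through only 1 group, so they are not matched to the 12. TIMP3, a protease inhibitor, rose in H1703 (5.39 ± 0.46) with 125, 130 and 135 counts with SAHA and 3, 0 and 6 with DMSO, and its value was 4.76 without DMSO replicate 2 and 6.38 without DMSO replicate 3. PPP2R2B, a phosphatase subunit, had 150, 130 and 109 counts with SAHA and 7, 13 and 6 with DMSO in H1703 (3.91 ± 0.28). It rose in H1299 (2.48 ± 0.30). RAP1GAP, which switches off a small GTPase, rose in H1703 (1.18 ± 0.09) and in H1299 (4.13 ± 0.22). SLIT2, a guidance cue, rose in H1299 (3.28 ± 0.12). In H1703 it had 38, 34 and 54 counts with SAHA and 3, 1 and 13 with DMSO (2.87 ± 0.64). BMPR1B, a BMP receptor, fell in H1703 (-2.86 ± 0.16) and in H1299 (-0.70 ± 0.21, edgeR adjusted p = 0.016), and in H1299 the call was lost without H1299 DMSO replicate 3 (0.057) or SAHA replicate 3 (0.055), which left 0 fallen. Histone methylation and Polycomb binding were not measured, so whether any of these genes carried the mark in these lines is not known from the files.

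**Figure D4:**
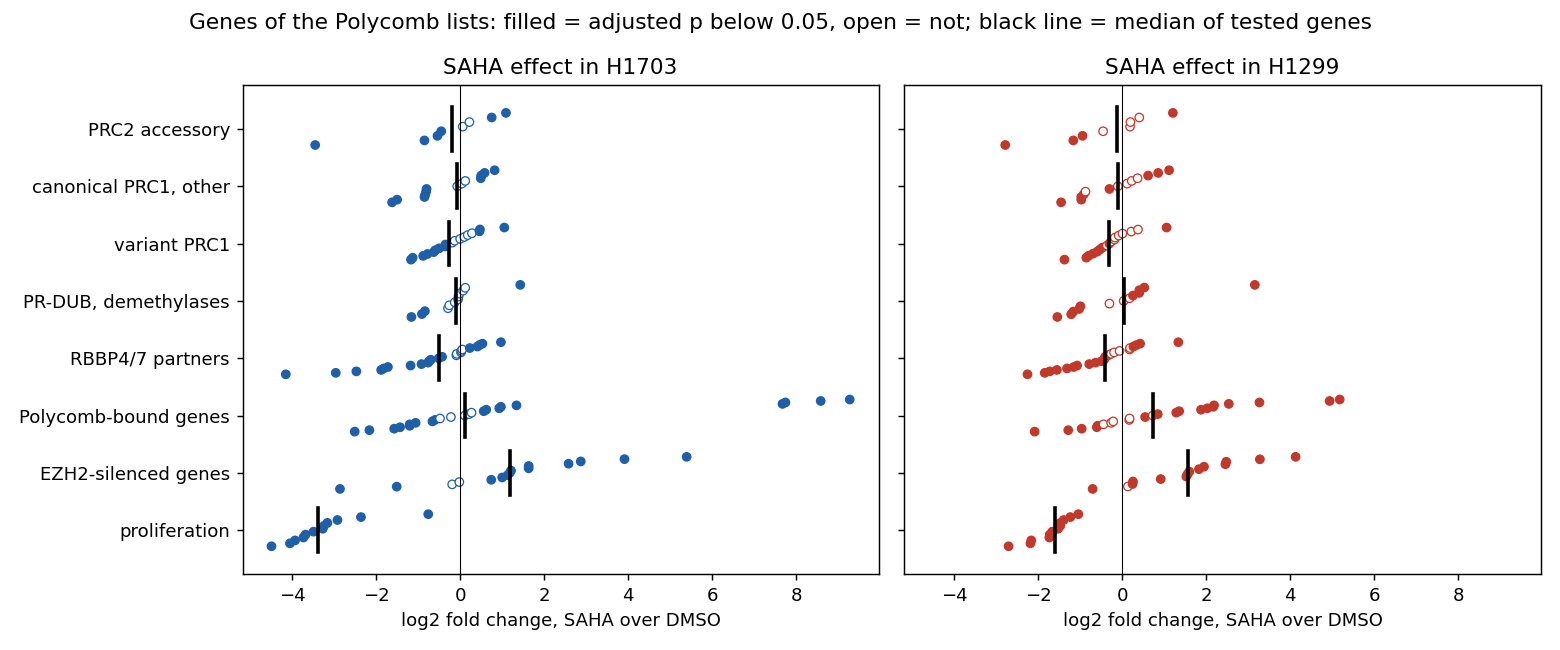
Log2 fold changes with SAHA of the tested genes of 8 lists, H1703 on the left and H1299 on the right; filled points were called, open ones were not, and the black line is the list's median. The medians of the EZH2-silenced genes that were tested are 1.18 and 1.58, and those of the proliferation markers -3.38 and -1.59. The 1.18 of H1703 includes PPP2R2B, SLIT2 and TIMP3, whose direction there was set by how they entered.

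Markers of proliferation were read as a further list. All 12 fell in each line, with a median of -3.38 in H1703 and -1.59 in H1299, and their summed level was 456 to 468 CPM with SAHA and 2460 to 2520 CPM with DMSO in H1703, and 803 to 978 CPM with SAHA and 2680 to 3060 CPM with DMSO in H1299. CCNA2, cyclin A2 (-4.49 ± 0.11), and RRM2, a ribonucleotide reductase subunit (-4.05 ± 0.37), fell furthest in H1703, and TYMS, thymidylate synthase (-2.70 ± 0.16), and TOP2A (-2.18 ± 0.15) in H1299. Their SAHA effect was lower in H1703 than in H1299 for 10 of 12 by the interaction and higher for 1. EZH2 fell by less than these medians in both lines, and the part of proliferation in the change of any member was not tested.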

How the data were processed

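Per the file headers, the authors deposited for each line a table of 58302 Ensembl genes with raw counts per gene and FPKM values for 6 libraries. Recomputed from the counts with a single length for each gene, the deposited FPKM was matched within 1% for 100.0% of 304680 values. Build GRCh38 and the tools HISAT2 2.1.0, StringTie 1.3.3b, edgeR 3.30.3, fastp and FastQC 0.11.9 stand in the submitters' processing notes without roles; the counting tool is not given in the sources used. Control columns carry a shorthand and were taken as DMSO, the only other group of each line. The depth of 14416126 to 19408852 counts a library gave every member 122 or more counts. Replicates of a group differed beyond sampling noise in every pair (chi-square per degree of freedom 10.9 to 24.7).

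The test was edgeR's (version 4.0.16, R 4.3.3; filterByExpr with a minimum count of 10 and total of 15, TMM, robust quasi-likelihood fit, Benjamini-Hochberg over all genes). Each line was fitted alone, and 1 fit over 12 libraries gave the interaction and the difference with DMSO. SE is the fold change over the root of F. Fits were tested on simulated data. The simulation gave every gene the same dispersion and changed few genes, unlike these data. It cannot show how well the p-values hold here. DESeq2 1.42.0, RLE scaling, library totals, no filter, exclusion of mitochondrial genes, a replicate block and leaving out each library were the alternatives. The labels call the replicate number a batch, which pairs SAHA and DMSO samples. The correlation of their deviations from the group means was -0.05 to 0.03, so no pairing showed. The differences given within batches therefore match libraries by number only.

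Members, lists, motifs and tests were chosen with earlier results of these data known. Named list genes are, per list and line, the 2 called genes that changed most, and the 1 of opposite direction with the smallest adjusted p, all at a mean log2 CPM of at least 1. All 152 entries of the lists matched a symbol; the 10 lists include 2 of cell type markers.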

Additional observations from a re-analysis of the deposited data

Results flagged for a closer look

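The SAHA effect differed between the lines, by the interaction test over all 12 libraries, for 4 of the 10 members, where 34.9% of all genes had such a difference. The values are H1703 minus H1299 on the log2 scale: -1.17 for CBX2, 0.91 for CBX7, -0.62 for EZH2 and 0.55 for EZH1. CBX2 rose with SAHA in H1299 and was not called in H1703, CBX7 rose more in H1703, EZH2 fell more in H1703, and EZH1 fell in H1299 and was not called in H1703. The dose behind each line is not given, so line and dose cannot be told apart.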

How the results depend on the processing

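Over 630 values of single members under alternatives, 593 kept their direction and side of the threshold. The median fold change of all genes moved by -0.104 in H1703, -0.103 in the interaction and -0.194 between the lines when library totals replaced TMM; there, members called lower in H1299 were 3 and members with a higher interaction 1. Leaving out single libraries gave 4 to 6 members lower in H1299 and 1 to 3 higher and 2 to 3 lower in the interaction. The replicate block changed no member's call, and no count of genes moved by over 1.5 times under any alternative, the block included (counts higher in H1703 ran from 5399 to 7008). Signs turned only for members that were not called. EED turned in H1299 to 0.03 (fit over 12 libraries), 0.05 (library totals) and 0.05 (without SAHA replicate 2; -0.09 to 0.05 over single libraries left out), and between the lines to -0.12 (library totals) and 0 (without mitochondrial genes). RBBP7 turned in H1703 to -0.10 (library totals), -0.02 (fit over 12 libraries; no filter), 0 (without mitochondrial genes; replicate block) and -0.06, -0.07 and -0.14 (-0.14 to 0.09 over single libraries left out). CBX2 turned in H1703 to -0.04 (library totals) and -0.01 (without SAHA replicate 1; -0.01 to 0.09 over single libraries), BMI1 in H1299 to 0 (without SAHA replicate 2; -0.25 to 0), and RNF2 between the lines to -0.10 (library totals). The cause was not tested. Of the counts over gene lists, 76 moved by over 1.5 times and 1184 did not. All paralogue balances kept their direction, with the replicate block too, where the paired exact test cannot go under 0.25. Over all genes replicates differed by more than counting error, but this need not hold for each member. CBX7 in H1299 with DMSO had 350, 353 and 364 counts, a spread no larger than counting error.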

Other observations

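Genes whose pattern over the 12 libraries lay closest to a member were found by the root mean square difference of centred log2 CPM among 10770 genes with a mean of 3 or more. The points are the same 12 libraries of 4 groups for every gene, so this is a description. For EZH2 these were TNPO2 (0.092), AC073869.1 (0.095), CEP85 (0.099), FANCC (0.107) and SF3A2 (0.116). For EZH1 they were WHAMM (0.099), GABRA3 (0.105), KATNBL1 (0.117), TIMP1 (0.123) and CTSC (0.124). CBX7 was closest to ZMIZ2 (0.122), SDHAF3 (0.147), SLC16A3 (0.149), MICA (0.165) and KLF9 (0.180), and CBX2 to WWC1 (0.134), TMEM102 (0.137), BLVRB (0.146), SMIM14 (0.154) and TMUB2 (0.163).

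With DMSO, the wider Polycomb lists were counted between the lines as well, where 66.5% of all genes were called. Subunits of canonical PRC1 outside the 10 were higher in H1703 than in H1299 for 4 and lower for 4 of 13 tested (median 0.18). Variant PRC1 subunits were higher for 5 and lower for 6 of 18 (median -0.02). The list of mark removers, their partners and KDM1B had 2 higher and 7 lower of 13 (median -0.31). Partners of RBBP4 and RBBP7 were higher for 3 and lower for 14 of 23 (median -0.52). With library totals alone 2 variant PRC1 subunits were higher, and in a fit of the DMSO libraries alone 5 of the partners were. Accessory subunits of PRC2 were higher in H1703 than in H1299 for 2 and lower for 5 of 8 tested (median -0.75; 1 higher with library totals alone).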
